A study of Sus scrofa with 13 samples.

Results

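Liver and kidney of Guizhou mini-pigs at 240 days after birth were compared feature by feature, with 1 total RNA library per organ. A feature was an Ensembl gene or a long noncoding RNA (lncRNA) of the catalogue, the latter listed by a TCONS identifier of the transcript assembly. The unit is RPKM, the number of reads on a feature divided by its length and by the reads of the library, and features reaching 1 RPKM in liver or kidney were kept. In total, 10425 of 32420 listed features were kept, comprising 9708 of 21607 Ensembl genes and 717 of 10813 lncRNAs. Of these features, 5959 reached 1 RPKM in liver, 9651 in kidney and 5185 in both. Near this limit, TNFRSF19 was the gene just inside at 1.0 RPKM and TCONS_00797628 the lncRNA just outside at 0.999 RPKM. The other 7 organs of the same breed and age were heart, spleen, lung, testis, ovary, adipose tissue and longissimus dorsi muscle, each with 1 library. They served to find which features liver and kidney shared and which belonged to either organ. All libraries were made from rRNA-depleted total RNA and were strand-specific, by a SMART or a dUTP protocol, which the labels do not assign to single libraries. The kidney label reads "kindey". Testis and ovary are both among the organs, so more than 1 animal was used. Whether liver and kidney came from the same animal, or each from several animals, is not given in the sources used here.

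The liver is built mainly of hepatocytes, which make most proteins of blood plasma, package lipids into lipoproteins, turn ammonia into urea, cholesterol into bile acids and lactate or amino acids into glucose. The kidney filters plasma in the glomerulus and takes back water, salts, glucose, amino acids and proteins along the proximal tubule, loop of Henle, distal tubule and collecting duct, each with its own transporters. Both organs make glucose, break down amino acids and handle hormones, and several hormone systems run from a liver protein to a kidney enzyme.

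The deposited values came from 30822198 reads in liver and 36363969 in kidney, of which 3629806 (11.8%) and 6488599 (17.8%) were counted on listed features. Across the 9 organs, totals ranged from 21685316 to 38581416 reads, and liver had the fewest counted reads. For a feature of 1 kb, 3 reads corresponded to 0.0973 RPKM in liver and 0.0825 in kidney. The RPKM values of liver summed to 65828 and those of kidney to 101533, so scaling the libraries changed the balance between them. The values were therefore also scaled to the same total and by the median ratio over 3096 features with at least 1 RPKM in all 9 organs. Relative to the deposited values, the former moved liver up against kidney by 0.63 and the latter by 1.21 on the log2 scale. Lung stood apart from the other organs, since it held transcripts of liver at a low share. Of 153 genes of at least 20 RPKM that belonged to liver alone, lung had reads on every gene, at a median of 5.09% of the liver level (quartiles 3.67% and 7.69%). Kidney had a median of 0.771%, heart, spleen and muscle had medians of 0, and lung was the highest of the other 8 organs for 91 of these genes. The source of these reads in lung was not tested, and the counts against the other organs are given with and without lung. With 1 library per organ there is no replicate error and no test. The intervals given are 95% intervals of the read numbers, which cover counting error only. In bulk tissue, fewer cells of a type and less RNA per cell cannot be told apart.

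The organs were compared on the log2(RPKM + 0.1) scale, liver minus kidney, where a difference of 1 is 2-fold and changes of low features are understated. Of the 9708 Ensembl genes, 898 (9.25%) were at least 2-fold higher in liver, 5904 (60.8%) at least 2-fold higher in kidney and 2906 within 2-fold, with a median difference of -1.34. Most of the excess in kidney depended on scaling. With the median ratio, 2402 of 10227 genes (23.5%) were higher in liver and 2622 (25.6%) in kidney, with a median of -0.05. Scaled to the same total, 1519 of 10496 (14.5%) were higher in liver and 4341 (41.4%) in kidney. The median ratio moved every gene compared towards liver. The same total moved most genes that way, but genes with 0 or few liver reads slightly towards kidney, such as CALB1 (-10.09 to -10.16). All 898 genes higher in liver as deposited were so in all 3 scalings. The genes higher in kidney in all 3 scalings were those left by the median ratio, 2622 of 9708 (27%). Of the 717 lncRNAs, 124 (17.3%) were at least 2-fold higher in liver, 506 (70.6%) in kidney and 87 within 2-fold, with a median of -2.11. With the same total, 252 of 937 lncRNAs (26.9%) were higher in liver and 521 (55.6%) in kidney, and with the median ratio 340 of 871 (39%) and 339 (38.9%). In all 3 scalings, 124 lncRNAs (17.3%) were higher in liver and 339 (47.3%) in kidney. Few lncRNAs were expressed in both organs. At least 1 RPKM in both was found for 136 of 717 lncRNAs, against 5049 of 9708 genes, and 61 of these 136 were within 2-fold. Below, a gene is called higher in an organ at 2-fold or more as deposited, and calls towards kidney that were lost with the other scalings are named. A gene under 1 RPKM in 1 organ was kept through the other, so as deposited it could be called only towards that other organ. Genes within 2-fold as deposited moved towards liver with the other scalings and could then be called there.

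**Figure D1:**
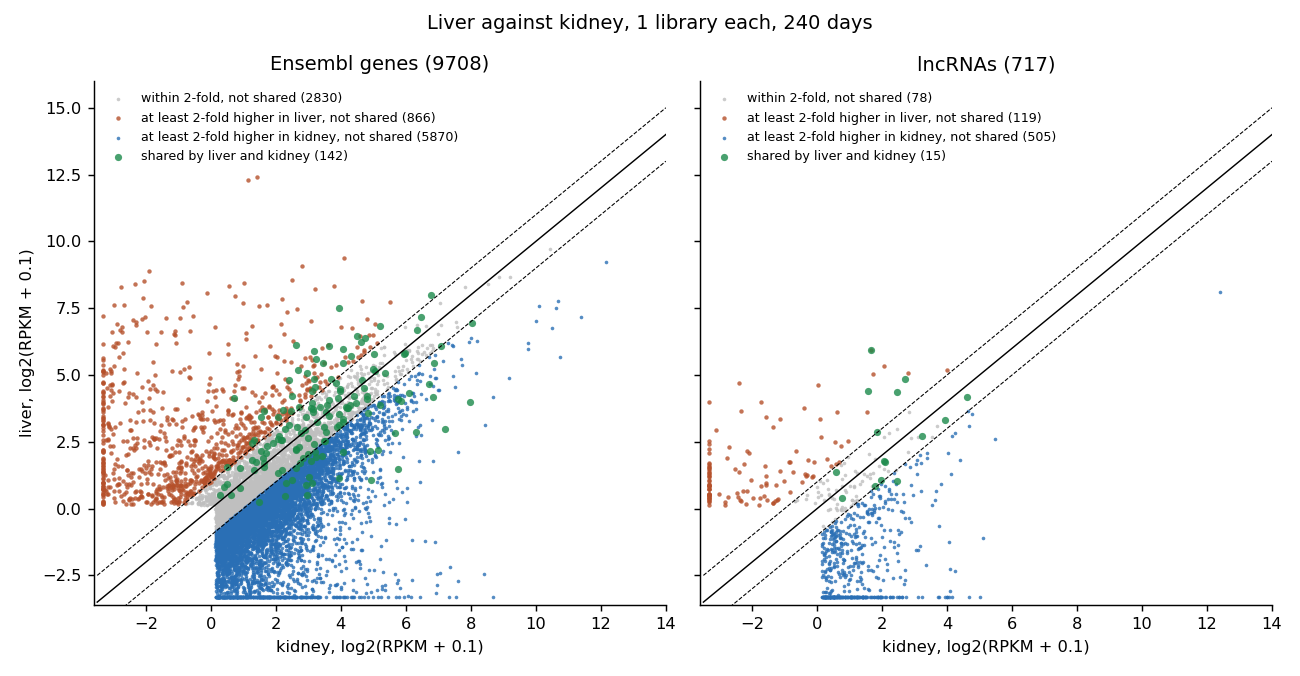
Level in liver (vertical axis) against kidney (horizontal axis) of the features compared, as log2(RPKM + 0.1), with Ensembl genes on the left and lncRNAs on the right. The solid line marks equal values and the dashed lines 2-fold differences, and colours mark features higher in liver, higher in kidney, within 2-fold, or shared by both organs against the other 7, with the number of points in the legend and the shared features counted apart. The cloud of genes lies below the line of equal values, with a median difference of -1.34, and the lncRNAs spread more widely with few points near it.

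Secreted proteins of the blood had the largest median difference between liver and kidney of all lists. Of 21 plasma protein genes compared, 20 were higher in liver and none in kidney, against 9.25% and 60.8% of all genes. The median difference was 7.42 against -1.34 over all genes. All 21 reached 1 RPKM in liver and 8 in kidney, so most were kept through liver alone and could be called only towards liver. The summed level of the 21 was 8806 RPKM in liver and 70.7 RPKM in kidney, 519 RPKM in lung and at most 64.9 RPKM in the remaining organs. ALB, which codes for serum albumin, had 5495 RPKM (348057 reads) in liver and 2.58 RPKM (193 reads) in kidney, a difference of 11, and the lowest, median and highest values of the other 7 organs were 0, 0.151 and 343 RPKM, the highest in lung. Without lung, the highest was 1.12 RPKM. Liver thus stood apart from all other organs in ALB, and kidney was below lung and above the other 6. The inter-alpha-trypsin inhibitor heavy chains, which bind hyaluronan, had 14 reads or fewer each in kidney. ITIH1 had 233 against 0.135 RPKM in liver and kidney, ITIH2 119 against 0.0341 RPKM and ITIH3 98 against 0.0486 RPKM. AHSG, the carrier protein fetuin-A, had 345 RPKM (15469 reads) in liver and 0.435 RPKM (23 reads) in kidney, a ratio of 793-fold (95% counting interval 529 to 1252). Other carriers gave the same picture, among them transthyretin (TTR, 350.1 against 1.94 RPKM), hemopexin (HPX, 188 against 0.456 RPKM) and the retinol carrier RBP4 (93 against 0.356 RPKM). FETUB, SERPINA6 and AFM had 0 reads in kidney. The member within 2-fold was KNG1, the kininogen from which kinins are cut, with 55.7 RPKM (2471 reads) in liver and 32 RPKM (1676 reads) in kidney.

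Lipoprotein genes followed. Of 13 apolipoprotein and lipid export genes compared, 11 were higher in liver, against 9.25% of all genes, with a median difference of 5.81. Of 14 members found in the data, 13 reached 1 RPKM in liver and 5 in kidney, so most were kept through liver alone. APOE, a ligand of lipoprotein receptors, had the largest difference of all named genes, 11.15, with 5041 RPKM (171225 reads) in liver and 2.12 RPKM (85 reads) in kidney. Kidney was low in APOE even against the other organs, whose lowest, median and highest values were 0, 22.4 and 345 RPKM, the highest in adipose tissue and the lowest in muscle. APOA2, of high-density lipoprotein, had 194 RPKM (2835 reads) in liver and 0.058 RPKM (1 read) in kidney. APOB, the backbone of very-low-density lipoprotein, had 192 RPKM (19790 reads) in liver and 0.181 RPKM (22 reads) in kidney, a ratio of 1061-fold (95% counting interval 701 to 1694), and at most 0.0699 RPKM in the other organs without lung, which had 8.81. Kidney was not empty of this group. MTTP, which loads lipid onto APOB, had 20.9 against 1.53 RPKM in liver and kidney, APOC3 297 against 9.02 RPKM, and APOM 2.26 against 2.83 RPKM. The paraoxonase PON1, an HDL-bound esterase, was higher in kidney at 11.9 against 28.2 RPKM, a difference of -1.24 that was -0.04 with the median ratio. APOA1 was listed at 0.364 RPKM (13 reads) in liver and 0 in kidney, under the limit of 1 RPKM.

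All 15 coagulation and fibrinolysis genes compared were higher in liver, against 9.25% of all genes, with a median difference of 5.57. All 15 reached 1 RPKM in liver and 8 in kidney, so the others could be called only towards liver. Plasminogen (PLG), the precursor of the enzyme that dissolves fibrin, had 116 RPKM (10395 reads) in liver and 0.104 RPKM (11 reads) in kidney. Antithrombin (SERPINC1) had 71.1 against 0.207 RPKM and fibrinogen gamma chain (FGG) 101 against 0.36 RPKM in liver and kidney. Some members were also well above the other organs in kidney. Factor IX (F9) had 59.1 RPKM (2617 reads) in liver and 8.92 RPKM (466 reads) in kidney, and CPB2, which slows fibrin breakdown, had 62.7 RPKM (2884 reads) in liver and 16.5 RPKM (894 reads) in kidney, while the other 7 organs reached at most 2.81 RPKM in F9 and 3.19 in CPB2, both in lung, and 0.234 and 0.195 without it. Factor V (F5) and PROS1, the cofactor protein S, had the smallest differences of the list, 1.48 and 1.14. Among 12 complement genes, 11 were higher in liver, against 9.25% of all genes, with a median difference of 5.53. CFB, of the alternative pathway, had 145 RPKM (10291 reads) in liver and 0.144 RPKM (12 reads) in kidney, and the terminal component C8A had 35.4 RPKM (2258 reads) in liver and 0 reads in kidney. Component C3 had 248 against 1.55 RPKM and C9 51.9 against 2.46 RPKM. CFI, the protease that cuts C3b, was within 2-fold at 29.8 against 15.1 RPKM and moved to 2.17 on the log2 scale with the median ratio.

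In nitrogen metabolism the organs divided within a pathway. Of the 8 urea cycle genes, CPS1, OTC, ARG1 and NAGS were higher in liver and 3 were within 2-fold. CPS1, which starts the cycle in mitochondria, had 51.2 RPKM (8559 reads) in liver and 0.0406 RPKM (8 reads) in kidney. OTC, the next enzyme, had 68.1 RPKM (4730 reads) in liver and 0.0244 RPKM (2 reads) in kidney, and arginase ARG1, which releases urea, had 31.7 RPKM (1962 reads) in liver and 0 reads in kidney, a ratio of at least 772-fold when 3 reads were taken as the limit in kidney. The enzymes between them were abundant in both organs. ASS1, which makes argininosuccinate, had 67.1 RPKM (3305 reads) in liver and 135 RPKM (7833 reads) in kidney, with 0.211, 0.688 and 8.92 RPKM as the lowest, median and highest of the other organs. ASS1 was higher in kidney as deposited, by a difference of -1.01, and slightly higher in liver with the median ratio, at 0.20. ASL, which splits argininosuccinate into arginine, had 33.5 against 22.2 RPKM, and the ornithine carrier SLC25A15 7.29 against 11.4 RPKM. Liver and kidney thus both expressed the steps that make arginine, and liver expressed the steps before and after them. Creatine synthesis, in the amino acid list, was also divided. GATM, which makes guanidinoacetate, had 9.4 against 16.6 RPKM in liver and kidney, and GAMT, which methylates it to creatine, 34.5 against 1.66 RPKM.

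Bile acid genes lay mainly on the liver side. Of 12 compared, 9 were higher in liver and 2 in kidney, against 9.25% and 60.8% of all genes. CYP7A1, the rate-limiting enzyme of bile acid synthesis, had 21.6 RPKM (1988 reads) in liver and 0.0185 RPKM (2 reads) in kidney, with 6.78 RPKM in lung and at most 0.871 in the other organs. The bile salt export pump ABCB11 had 26.9 RPKM (3312 reads) in liver and 0.0551 RPKM (8 reads) in kidney. ABCC2, which exports conjugates into bile and urine, was within 2-fold as deposited, with 12.2 RPKM (1800 reads) in liver and 11.5 RPKM (2008 reads) in kidney, and higher in liver with the median ratio, by a difference of 1.28. Both subunits of the basolateral organic solute transporter had reads in kidney and none in liver. SLC51A had 0 reads in liver and 3.89 RPKM (210 reads) in kidney, and SLC51B 0 reads and 21 RPKM (302 reads). The highest values of the other 7 organs were 0.155 and 0.116 RPKM, in ovary.

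In kidney, the nephron could be followed segment by segment. All 31 proximal tubule genes compared were higher in kidney, against 60.8% of all genes, with a median difference of -6.34. In all 3 scalings 30 were, against 27% of all genes. The exception was the aminopeptidase ANPEP, which was also present in liver at 7.16 against 26.6 RPKM and moved to -0.69 with the median ratio. Of 36 members found in the data, 31 reached 1 RPKM in kidney and 4 in liver, so most were kept through kidney alone. The summed level of the list was 17.2 RPKM in liver and 953 in kidney, and in the other 7 organs it was between 5.86 and 80.8 RPKM. CUBN, the receptor that takes filtered proteins back, had 0.00457 RPKM (1 read) in liver and 66.3 RPKM (17139 reads) in kidney, and the lowest, median and highest values of the other organs were 0.00782, 0.0373 and 1.65 RPKM. AMN, which carries CUBN to the membrane, had 0 reads in liver and 23.6 RPKM (970 reads) in kidney. The lactate transporter SLC5A12 had 0.0396 RPKM (6 reads) in liver and 124 RPKM (22126 reads) in kidney and at most 0.106 RPKM in other organs. Outside kidney, these 3 genes stayed at or under 1.65 RPKM in every organ. Glucose uptake was represented by SLC5A2 (0 against 5.58 RPKM in liver and kidney), the organic anion transporters by SLC22A6 (0.0197 against 20.5 RPKM) and SLC22A8 (0.0234 against 38.5 RPKM), and urate uptake by SLC22A12 (0 against 24.5 RPKM). The peptidases of the brush border gave the same order, with 0.0827 RPKM (8 reads) in liver and 125 RPKM (14283 reads) in kidney for ENPEP and 0.0579 RPKM (6 reads) in liver and 53.7 RPKM (6568 reads) in kidney for MME.

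Among genes with a symbol, AOC1, which degrades histamine and polyamines and was on no list, had the largest difference towards kidney, -10.85, with 0.0835 RPKM (8 reads) in liver and 339 RPKM (38261 reads) in kidney, and 0, 0.0256 and 1.09 RPKM as the lowest, median and highest of the other organs. KCNJ15, a potassium channel, had 0.0531 RPKM (2 reads) in liver and 194 RPKM (8627 reads) in kidney and reached 12.3 RPKM in lung. MCCD1 had 0.0894 RPKM (1 read) in liver and 131 RPKM (1735 reads) in kidney, and TINAG, a protein of the tubular basement membrane, had 0 reads in liver and 55.4 RPKM (3358 reads) in kidney, a ratio of at least 949-fold. All 10 named genes with the largest difference towards kidney had at most 8 reads in liver.

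Of 16 genes of the loop of Henle and distal tubule, 14 were higher in kidney, against 60.8% of all genes. In all 3 scalings 13 were, against 27% of all genes, and the median difference was -4.42 as deposited. Of 18 members found in the data, 16 reached 1 RPKM in kidney and 4 in liver, so most were kept through kidney alone. UMOD, which codes for uromodulin of the thick ascending limb, had 0.121 RPKM (6 reads) in liver and 165 RPKM (9601 reads) in kidney and at most 0.0675 RPKM in the other organs (highest in lung). SLC12A1, the sodium, potassium and chloride cotransporter of that segment, had 0.055 RPKM (8 reads) in liver and 73.4 RPKM (12590 reads) in kidney. CALB1, the calcium-binding protein of the distal convoluted tubule, had 0.0117 RPKM (1 read) in liver and 121 RPKM (12269 reads) in kidney, a ratio of 10399-fold (95% counting interval 1866 to 410781). In the 7 other organs these 3 genes reached at most 0.166 RPKM. EGF, which the distal tubule secretes, had 0.318 against 119 RPKM in liver and kidney, and 56.6 RPKM in muscle. CLDN14, a claudin placed on this list, went against it with 11.5 RPKM (255 reads) in liver and 1.49 RPKM (39 reads) in kidney. CNNM2, a magnesium transport gene, had 2.62 against 5.72 RPKM, and its difference of -1.10 became 0.08 with the median ratio.

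All 20 collecting duct genes compared were higher in kidney in all 3 scalings, with a median difference of -5.08. Of 23 members found in the data, 20 reached 1 RPKM in kidney and 0 in liver. The limit of 1 RPKM thus kept each gene through kidney and fixed the direction in advance, though not the size. AVPR2, ELF5 and STC1 were under 1 RPKM in both organs. The summed level of the 23 members was 0.666 RPKM in liver and 215 in kidney. The water and sodium channel genes of principal cells had 3 reads or fewer in liver. AQP2, the water channel under vasopressin control, had 0 reads in liver and 17.5 RPKM (2727 reads) in kidney, and the sodium channel subunit SCNN1A had 0.0418 RPKM (3 reads) in liver and 27.9 RPKM (2359 reads) in kidney. Intercalated cell genes, which secrete acid or base, were present too, with 38.4 RPKM (5426 reads) of the proton pump subunit ATP6V1B1 in kidney and 1.49 RPKM (125 reads) of the regulator FOXI1, against 4 reads and 0 reads in liver. KLK1, the tissue kallikrein, had 0 reads in liver and 61.6 RPKM (1883 reads) in kidney, a ratio of at least 532-fold. Of 10 glomerulus genes found in the data, 7 were compared, and NPHS1, NTNG1 and CD2AP were under 1 RPKM in both organs. The 7 compared were all higher in kidney, in all 3 scalings, with a median of -4.60, at lower levels. The list summed to 0.93 RPKM in liver, so all 7 were kept through kidney, which fixed the direction in advance. The basement membrane collagen COL4A4 had 0.284 RPKM (51 reads) in liver and 10.1 RPKM (2144 reads) in kidney, and PTPRO, a phosphatase of podocytes, 0.0143 RPKM (1 read) in liver and 2.68 RPKM (221 reads) in kidney. Of the 7, only 1 belonged to kidney alone among the 9 organs, against 29 of 31 for the proximal tubule and 16 of 20 for the collecting duct.

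**Figure D2:**
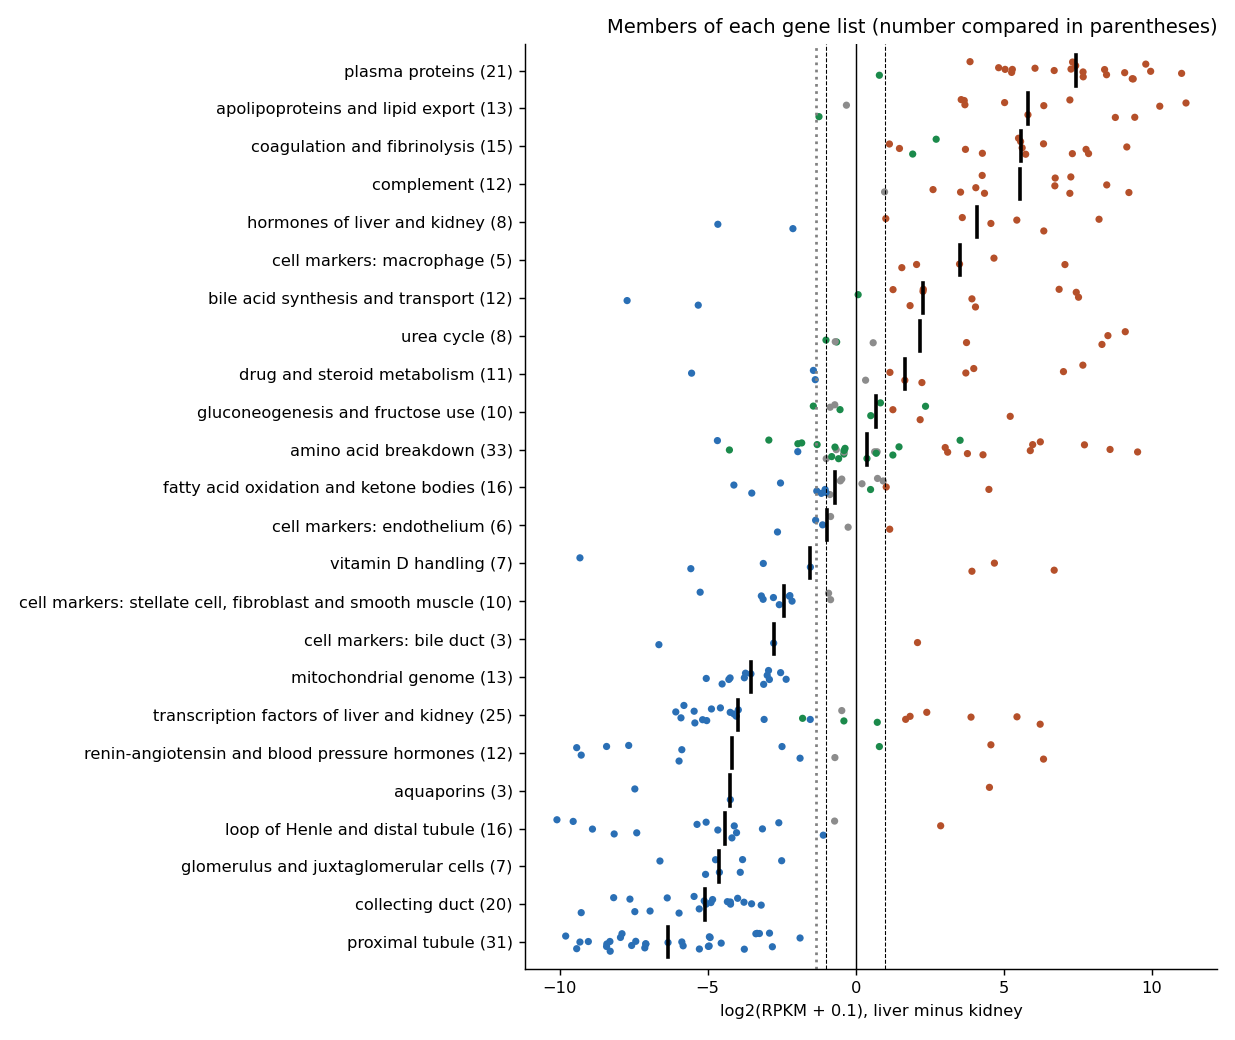
Difference between liver and kidney of the members of each gene list with at least 3 members compared, in log2(RPKM + 0.1), liver minus kidney. Points are genes (brown higher in liver, blue higher in kidney, grey within 2-fold, green shared by both organs against the other 7), black bars are list medians, dashed lines mark 2-fold and the dotted line the median of all genes (-1.34). List medians run from 7.42 for plasma proteins to -6.34 for the proximal tubule, and the green points gather in the amino acid and glucose lists.

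Transcription factors were compared as the regulators of these programmes. Of 25 on the list, 6 were higher in liver, 16 in kidney (14 in all 3 scalings) and 3 within 2-fold. The share higher in kidney was thus near the 60.8% of all genes as deposited, and above their 27% in all 3 scalings. HNF4A, a nuclear receptor of hepatocytes and proximal tubule, had 14.6 RPKM (2124 reads) in liver and 19.2 RPKM (3313 reads) in kidney, while the lowest, median and highest values of the other organs were 0, 0.0168 and 0.783 RPKM. The xenobiotic receptor NR1I2 had 7.87 RPKM (741 reads) in liver and 4.72 RPKM (524 reads) in kidney, with at most 0.611 RPKM elsewhere. Both factors were shared by liver and kidney against the other organs. On the liver side, CEBPA had 7.62 RPKM (250 reads) in liver and 0.0775 RPKM (3 reads) in kidney, ONECUT1 8.47 RPKM (493 reads) in liver and 0.0146 RPKM (1 read) in kidney and the bile acid receptor NR1H4 13.1 RPKM (604 reads) in liver and 3.59 RPKM (196 reads) in kidney. On the kidney side, PAX2, of the ureteric bud and nephron, had 0 reads in liver and 6.64 RPKM (303 reads) in kidney, POU3F3 had 0 reads and 2.83 RPKM (123 reads), and TFAP2B 0 reads and 5.48 RPKM (281 reads). PAX2 and POU3F3 had 0 reads in the other 7 organs as well. The 3 HOX genes compared were kept through kidney alone, which fixed their direction in advance. HOXA9 and HOXD9 were under 1 RPKM in both organs. HOXB7 had 5.87 RPKM (283 reads), HOXC10 1.63 RPKM (50 reads) and HOXD10 3.17 RPKM (118 reads) in kidney, each with 0 reads in liver.

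Members of several hormone systems were compared next. Vitamin D travels on the binding protein GC, is hydroxylated in liver and kidney, and acts through the receptor VDR. GC had 206 RPKM (9080 reads) in liver and 1.89 RPKM (98 reads) in kidney. CYP27A1, a hydroxylase that can carry out the liver step, had 5.7 RPKM (171 reads) in liver and 0.282 RPKM (10 reads) in kidney, and CYP27B1, which makes the active hormone, had 0.0296 RPKM (2 reads) in liver and 1.03 RPKM (82 reads) in kidney and at most 0.0945 RPKM in other organs. VDR had 0 reads in liver and 4.64 RPKM (778 reads) in kidney. Of 7 genes of vitamin D handling, 3 were higher in liver and 4 in kidney, 2 of the latter in all 3 scalings, while 60.8% of all genes were higher in kidney. With the median ratio, FGFR1, the receptor for a phosphate hormone of bone, lost its call (-0.41), and CYP27B1 fell under 1 RPKM in both organs and was no longer compared.

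In the renin-angiotensin system, angiotensinogen (AGT) is cut by renin and then by the converting enzyme ACE to angiotensin II. AGT had 10.1 RPKM (697 reads) in liver and 0.331 RPKM (27 reads) in kidney, but its level in lung (14.5 RPKM) was above that in liver. ACE had 0.0936 RPKM (12 reads) in liver and 39.2 RPKM (5931 reads) in kidney. It was not highest in kidney among all organs, since it reached 85.2 RPKM in testis. The receptor AGTR1 was within 2-fold at 3.8 against 6.25 RPKM. Of 12 genes of this list, 2 were higher in liver and 8 in kidney, the latter a share near the 60.8% of all genes. In all 3 scalings 7 were higher in kidney, a share above the 27% of all genes. Members of the kinin branch were found in different organs. Plasma kallikrein (KLKB1) was found in liver, with 9.0 RPKM (613 reads) in liver and 0.0124 RPKM (1 read) in kidney, tissue kallikrein (KLK1) in kidney, and their substrate KNG1 in both.

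Hormone genes of the liver included IGFBP1, which binds insulin-like growth factor, with 35.1 RPKM (1604 reads) in liver and 0.0185 RPKM (1 read) in kidney, IGFALS, its serum partner, with 4.23 RPKM (261 reads) and 0 reads, and IGF1 with 10.01 RPKM (346 reads) in liver and 0.735 RPKM (30 reads) in kidney. IGF1 was higher still in adipose tissue (22.7 RPKM). The parathyroid hormone receptor PTH1R had 0.839 RPKM (53 reads) in liver and 23.6 RPKM (1757 reads) in kidney. Erythropoietin (EPO), made by cells of the kidney interstitium, was under the limit, with 0 reads in liver and 0.131 RPKM (6 reads) in kidney. Of 8 genes compared, 6 were higher in liver and 2 in kidney, against 9.25% and 60.8% of all genes. INSR, among those higher in kidney, was not called with the median ratio (-0.94). Of 3 aquaporins compared, AQP2 and AQP6 were higher in kidney and AQP9, which carries glycerol, in liver with 2.3 RPKM (392 reads) in liver and 0.00496 RPKM (1 read) in kidney.

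**Figure D3:**
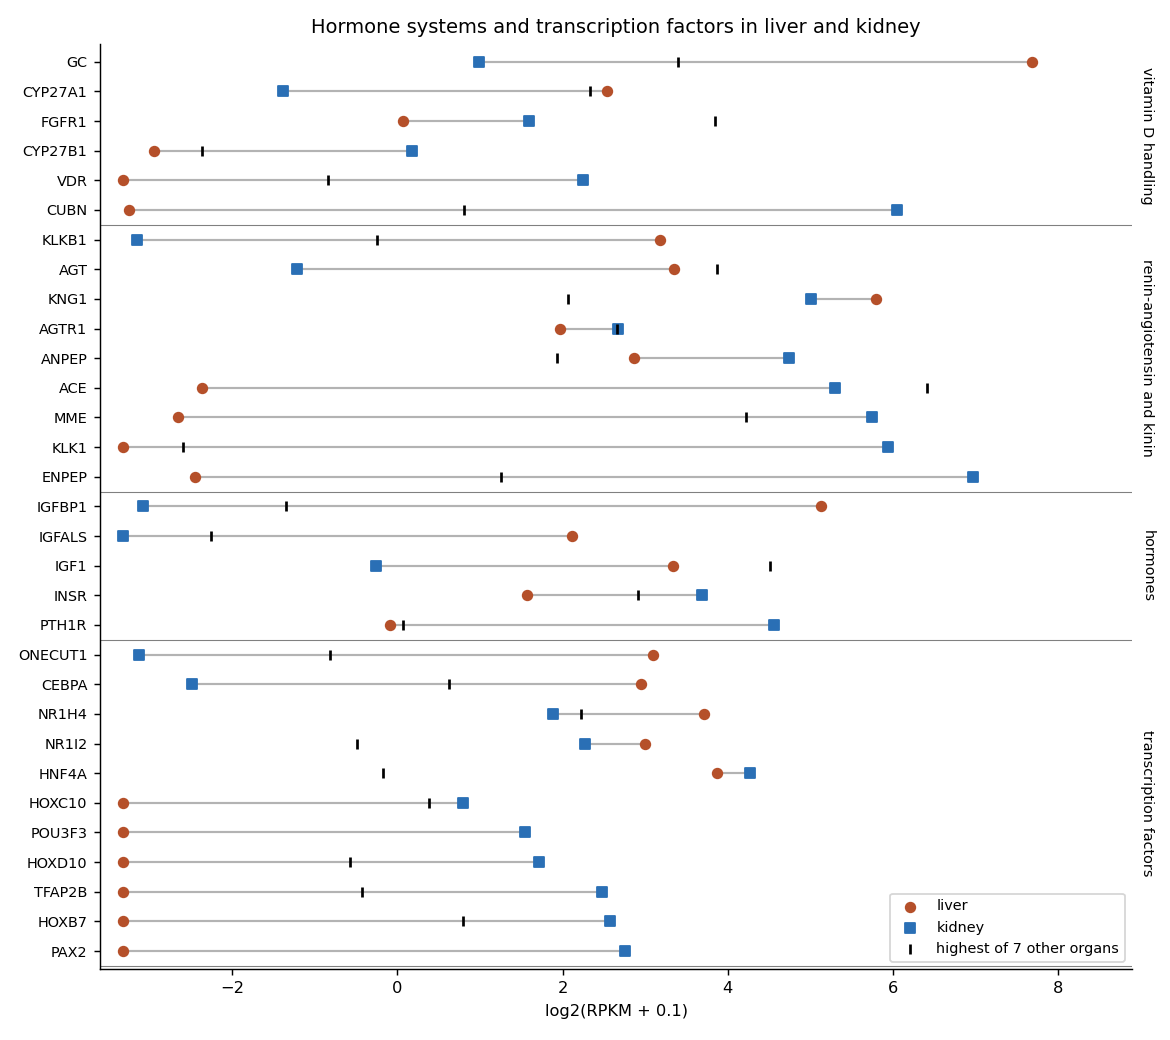
Levels in liver (brown circles) and kidney (blue squares) and the highest level among the 7 other organs (black ticks), in log2(RPKM + 0.1), for the genes named from 4 lists, with at least 1 RPKM in liver or kidney. Genes are ordered within a list by the difference, and the lowest position on the axis is 0 RPKM. The carrier GC, the prohormone AGT and plasma kallikrein KLKB1 lie to the right in liver. The enzymes and receptors CYP27B1, VDR, ACE and ENPEP lie to the right in kidney. The ticks of HNF4A, NR1I2 and KNG1 lie left of both organs.

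A feature was taken as shared when it had at least 1 RPKM in both organs and its lower value of the pair was at least 2-fold above the highest of the other 7 organs. In total, 142 genes (1.46%) met this rule, 81 of them with a symbol. Within the pair, 32 were higher in liver, 34 in kidney and 76 within 2-fold. For 66 of them all other organs were under 1 RPKM. Lung was the highest other organ for 81. The margin, the log2 distance of the lower organ of the pair over the highest other organ, had a median of 2.37, and of 3.65 with lung left out, when 186 genes met the rule. In all 3 scalings, 130 of the 142 met it. Over all genes, 199 (1.9%) met it with the same total and 227 (2.22%) with the median ratio.

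Among shared genes with a symbol, the 10 with the largest margins coded for enzymes of the peroxisome, mitochondrion and cytosol, a protease and a regulator. ALDH8A1, an aldehyde dehydrogenase, led with a margin of 4.93, 7.04 RPKM (241 reads) in liver and 6.66 RPKM (269 reads) in kidney, and 0, 0 and 0.122 RPKM as the lowest, median and highest of the other organs. DDC, which makes dopamine and serotonin from their precursors, had 13.7 RPKM (787 reads) in liver and 17.6 RPKM (1195 reads) in kidney, against at most 0.421 RPKM in the other organs (highest in lung). DMGDH, of choline breakdown in mitochondria, had 14.8 RPKM (1431 reads) in liver and 36.6 RPKM (4187 reads) in kidney, against at most 0.473 RPKM in lung and 0.0165 in the rest. PCK1, the rate-limiting enzyme of gluconeogenesis, was the most abundant of the 10, with 43.1 RPKM (3438 reads) in liver and 116 RPKM (10968 reads) in kidney, and reached 1.76 RPKM in adipose tissue. These 4 genes were at least 2-fold higher in kidney (DMGDH, PCK1) or within 2-fold of equal (ALDH8A1, DDC), and the differences of -1.30 for DMGDH and -1.43 for PCK1 shrank to -0.10 and -0.23 with the median ratio.

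DIO1, the deiodinase that activates thyroid hormone, had nearly the same deposited level in both organs, 35.3 RPKM (1921 reads) in liver and 33.1 RPKM (2131 reads) in kidney, a ratio of 1.06-fold (95% counting interval 0.999 to 1.13) and 0, 0.0147 and 1.5 RPKM as the lowest, median and highest elsewhere. With the median ratio, DIO1 was higher in liver, by a difference of 1.29. UPB1, the last enzyme of pyrimidine breakdown, had 18.3 RPKM (1607 reads) in liver and 21.1 RPKM (2185 reads) in kidney. Of the glyoxylate enzymes, AGXT, which turns glyoxylate into glycine, had 18.7 RPKM (986 reads) in liver and 27.9 RPKM (1741 reads) in kidney, and HAO1, which makes glyoxylate in peroxisomes, 13.5 RPKM (775 reads) in liver and 17.9 RPKM (1210 reads) in kidney. HABP2, a secreted serine protease, had 25.8 RPKM (2371 reads) in liver and 14.4 RPKM (1558 reads) in kidney. With lung left out, the margin of DIO1 rose from 4.38 to 7.77 and that of AGXT from 4.32 to 7.15, so lung set the distance for both. A1CF, which guides editing of the APOB transcript, entered the 10 largest margins among genes with a symbol when lung was left out, with 28.4 RPKM (1589 reads) in liver and 8.92 RPKM (589 reads) in kidney and 0 reads in the other organs outside lung.

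**Figure D4:**
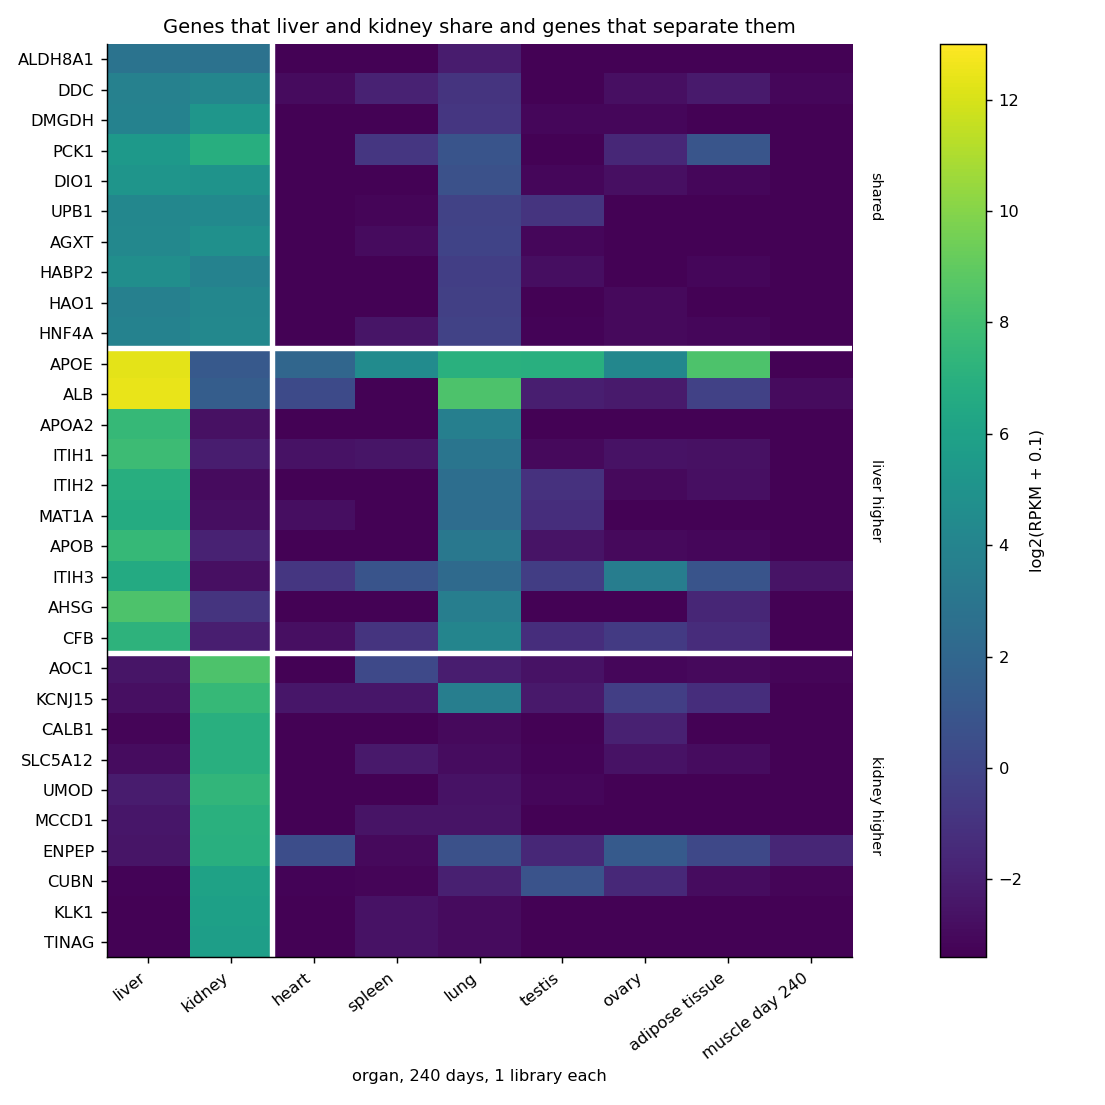
Level of the 10 named genes with the largest margin among the shared genes (top), the largest difference towards liver (middle) and the largest difference towards kidney (bottom) in the 9 organs at 240 days, as colour in log2(RPKM + 0.1). The shared genes have similar colours in liver and kidney and low values elsewhere, ALB and APOE have 5495 and 5041 RPKM in liver, and lung carries a trace of the liver genes.

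Shared genes were frequent in lists of intermediary metabolism. Of 33 genes of amino acid breakdown, 16 were shared, against 1.46% of all genes compared. Within the pair, 13 of the 33 were higher in liver, 7 in kidney (3 in all 3 scalings) and 13 within 2-fold. The shares of all genes were 9.25% for liver and 60.8% for kidney (27% in all 3 scalings). Tyrosine breakdown leaned to liver. TAT, which starts tyrosine breakdown, had 38.9 RPKM (2847 reads) in liver and 0.521 RPKM (45 reads) in kidney and HPD, the next enzyme, 216 RPKM (10071 reads) in liver and 25.1 RPKM (1379 reads) in kidney, whereas FAH, the last enzyme, was within 2-fold at 66 against 40.0 RPKM. In tryptophan breakdown, TDO2, the entry enzyme, had 98.5 RPKM (5323 reads) in liver and 0.157 RPKM (10 reads) in kidney, KMO 10.2 RPKM (777 reads) in liver and 20.4 RPKM (1839 reads) in kidney, and ACMSD, which steers the pathway away from NAD, 0.245 RPKM (6 reads) in liver and 8.68 RPKM (251 reads) in kidney, with 0 reads in the other 7 organs. TDO2 was thus on the liver side, ACMSD on the kidney side and KMO within 2-fold. Histidine breakdown was on the liver side, with 21 RPKM (1910 reads) in liver and 0 RPKM (0 reads) in kidney for UROC1, while FTCD, at its end, was shared at 5.86 against 2.4 RPKM. D-amino acid oxidase (DAO) and the aminoadipate aminotransferase AADAT were shared but higher in kidney, with 4.5 RPKM (463 reads) in liver and 35.1 RPKM (4257 reads) in kidney for DAO and 2.73 RPKM (125 reads) in liver and 54.3 RPKM (2935 reads) in kidney for AADAT. AGXT2, a mitochondrial aminotransferase, was the most abundant shared member, with 143 RPKM (10011 reads) in liver and 88.8 RPKM (7323 reads) in kidney. MAT1A, which makes S-adenosylmethionine, was not shared, with 104 RPKM (10414 reads) in liver and 0.0423 RPKM (5 reads) in kidney, a ratio of 2457-fold (95% counting interval 1053 to 7569.5).

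Of 10 genes of gluconeogenesis and fructose use, 5 were shared, namely PCK1, PCK2, TKFC, GLYCTK and SLC2A2. PCK2, the mitochondrial form of the enzyme, had 15.3 RPKM (1115 reads) in liver and 22.1 RPKM (1905 reads) in kidney, and SLC2A2, a glucose transporter of hepatocytes and proximal tubule cells, had 48.3 RPKM (2681 reads) in liver and 9.36 RPKM (613 reads) in kidney, with at most 0.102 RPKM outside lung. The liver form of pyruvate kinase (PKLR) separated them, with 1.68 RPKM (87 reads) in liver and 0.295 RPKM (18 reads) in kidney. Fructose use was present in both, with 27.3 against 11.4 RPKM of ketohexokinase (KHK) in liver and kidney. Fatty acid oxidation and ketone genes were not restricted to the pair. Of 16 compared, 1 (ACOX2) was shared, 2 were higher in liver and 7 in kidney. ACADM, ACAA2 and PPARGC1A were higher in kidney in all 3 scalings. Both shares towards kidney were below those of all genes, 60.8% as deposited and 27% in all 3 scalings. ACADM, of medium-chain oxidation, had 16.9 RPKM (1274 reads) in liver and 98.8 RPKM (8788 reads) in kidney and 5.0, 35.8 and 51.9 RPKM as the lowest, median and highest of the other organs. The calls of HADHA, HADHB and ACADL towards kidney (-1.03, -1.0 and -1.16) turned to 0.17, 0.17 and 0.04 with the median ratio.

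The 13 protein genes of the mitochondrial genome were a list chosen after its values were seen. All 13 were higher in kidney in all 3 scalings, against 27% of all genes. Their median difference was -3.54 as deposited and -2.33 with the median ratio. Together they took 1.64% of the counted reads in liver and 10.9% in kidney, against 1.37% in lung and 13% in heart as the lowest and highest of the 9 organs. COX1 had 593 RPKM (28240 reads) in liver and 4567 RPKM (256577 reads) in kidney, and ND4 had 51.4 RPKM (2184 reads) in liver and 1703 RPKM (85350 reads) in kidney, the largest difference of the list. Liver thus had the third lowest share of the 9 organs and kidney the second highest. Reads shared with nuclear copies could not be told apart.

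Features that belonged to either organ alone, at least 2-fold above all 8 other organs, outnumbered the shared ones. For liver there were 350 genes (3.61%) and 65 lncRNAs (9.07%), and for kidney 463 genes (4.77%) and 171 lncRNAs (23.8%). Of the liver genes, 50 reached 100 RPKM, against 19 of the kidney genes. Lung was the highest other organ for 162 of the 350 liver genes and 83 of the 463 kidney genes. A gene could be shared and still belong to a single organ, where it was at least 2-fold higher in that organ of the pair. With the same total, 578 genes (5.51%) and 141 lncRNAs (15%) belonged to liver and 513 genes (4.89%) and 192 lncRNAs (20.5%) to kidney. With the median ratio, 883 genes (8.63%) and 216 lncRNAs (24.8%) belonged to liver and 449 genes (4.39%) and 145 lncRNAs (16.6%) to kidney. With lung left out, 373 and 540 genes and 71 and 187 lncRNAs belonged to liver and kidney.

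Most lncRNAs reached 1 RPKM in only 1 organ of the pair, and some had no reads in the other. Of the 717 compared, 172 had 0 reads in liver and 44 had 0 reads in kidney. The median level was 0.379 RPKM (9 reads) in liver and 1.68 RPKM (41 reads) in kidney, and 108 had under 20 reads in both. On the liver side, TCONS_00739714 had 15.6 RPKM (133 reads) in liver and 0 reads in kidney, a difference of 7.29 and a ratio of at least 52.3-fold. TCONS_00816968 had 25.8 RPKM (748 reads) in liver and 0.0876 RPKM (3 reads) in kidney, a ratio of 294-fold (95% counting interval 100.3 to 1429.7), and at most 0.345 RPKM in the other organs (highest in lung). TCONS_00070098 had 7.62 RPKM (767 reads) in liver and 0.0168 RPKM (2 reads) in kidney. Not all were restricted to liver, since TCONS_00181369 had 12.6 RPKM (217 reads) in liver and 0.0986 RPKM (2 reads) in kidney but 27 RPKM in lung. TCONS_00045491, by contrast, had 5.64 RPKM (37 reads) in liver and 0 reads in all other organs at 240 days.

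On the kidney side, the 5 lncRNAs with the largest difference all had 0 reads in liver. TCONS_00369554 had 32.4 RPKM (250 reads) in kidney, at least 70.6-fold above the 3-read limit of liver, and 0, 0 and 15.4 RPKM as the lowest, median and highest of the other organs, the highest in lung. TCONS_00172494 had 25.6 RPKM (1173 reads) and was also found in heart at 8.66 RPKM. TCONS_00795875 was found in kidney alone among the 9 organs, with 16.6 RPKM (226 reads). TCONS_00350127 had 17.8 RPKM (446 reads) and TCONS_00117532 15.8 RPKM (223 reads), with 0.829 and 0.411 RPKM as the highest elsewhere. Read numbers of TCONS_00795875 and TCONS_00045491, which were above 0 in fewer than 4 libraries, are lower bounds, because the feature length used to recover them was less well determined.

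The rule for shared features was met by 15 lncRNAs (2.09%), of which 5 were higher in liver, 1 in kidney and 9 within 2-fold. For 11 of them all other organs were under 1 RPKM, lung was the highest other organ for 8, and 13 met the rule in all 3 scalings. With lung left out, 16 lncRNAs met it. Over all lncRNAs, 24 (2.56%) met it with the same total and 30 (3.44%) with the median ratio. TCONS_00567301 had the largest margin, 4.27, with 7.19 RPKM (72 reads) in liver and 3.47 RPKM (41 reads) in kidney. The most abundant in kidney was TCONS_00267112, which was counted over 4574 nt, with 17.9 RPKM (2527 reads) in liver and 24.5 RPKM (4073 reads) in kidney, against 0, 0.0122 and 0.929 RPKM as the lowest, median and highest of the other organs. It lay within 2-fold between liver and kidney, by a difference of -0.45 as deposited and 0.75 with the median ratio. TCONS_00001571 had 1.95 RPKM (140 reads) in liver and 5.42 RPKM (459 reads) in kidney, the only shared lncRNA called towards kidney, and its difference of -1.43 was -0.26 with the median ratio. TCONS_00255824 had 20.9 RPKM (203 reads) in liver and 2.88 RPKM (33 reads) in kidney and TCONS_00589296 3.25 RPKM (42 reads) in liver and 4.13 RPKM (63 reads) in kidney. Both have a shared lncRNA with the adjacent identifier, TCONS_00255823 and TCONS_00589295, so these 4 of the 15 may not be independent. All 15 had at least 3 reads in the library of mixed tissues.

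A single lncRNA, named after its values were seen, dominated the lncRNA reads of kidney. TCONS_00512109 had 5375 RPKM (114140 reads) in kidney, which was 47.8% of the lncRNA reads there, and 278 RPKM (5013 reads) in liver, 10.1% of them. It was higher in every other organ than in liver, from 1173 RPKM in spleen to 6379.96 RPKM in heart. Heart, muscle and kidney, which were high in this lncRNA, were also the 3 organs with the largest share of mitochondrial reads. Whether the locus is mitochondrial or a copy of such sequence was not tested.

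**Figure D5:**
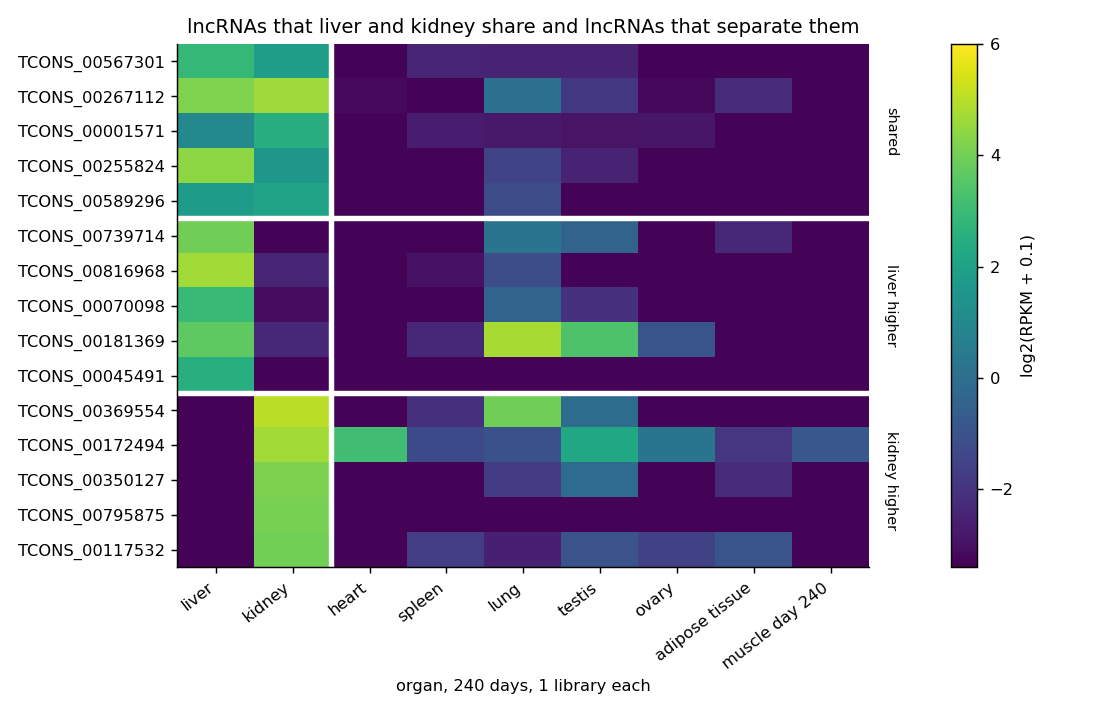
Level of the 5 named lncRNAs with the largest margin among the shared lncRNAs (top), the largest difference towards liver (middle) and the largest difference towards kidney (bottom) in the 9 organs at 240 days, as colour in log2(RPKM + 0.1). The darkest colour is 0 RPKM, and the kidney lncRNAs have it in liver, whereas TCONS_00181369 and TCONS_00369554 are also bright in lung.

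Markers of other cells also differed between the libraries and stand beside the lists above. Over all genes, 60.8% were higher in kidney as deposited and 27% in all 3 scalings, and 9.25% were higher in liver. All 5 macrophage genes compared were higher in liver, with a summed level of 38.3 RPKM in liver and 4.03 in kidney, and 105 in spleen. CLEC4F, a Kupffer cell lectin, had 13.3 RPKM (726 reads) in liver and 0 reads in kidney, and C1QA, a complement subunit made by macrophages, had 7.57 RPKM (256 reads) in liver and 0.577 RPKM (23 reads) in kidney. Genes of stellate cells, fibroblasts and smooth muscle were low in both organs, but 8 of 10 were higher in kidney in all 3 scalings, with sums of 11.5 and 71.3 RPKM against 49.3 to 1394 in the other organs. The matrix protein decorin (DCN) had 0.609 RPKM (28 reads) in liver and 26.9 RPKM (1461 reads) in kidney. For endothelium, 1 of 6 was higher in liver, the scavenger receptor STAB1 (3.0 against 1.3 RPKM), and 3 in kidney, of which FLT1 was higher in all 3 scalings and KDR turned from -1.12 to 0.06 with the median ratio. Bile duct genes were split, with CLDN4 higher in liver (3.2 against 0.678 RPKM) and EPCAM (0.0394 against 13.9 RPKM) and SPP1 in kidney, tubule cells also expressing EPCAM. Of 2 lymphocyte genes compared, CD2 and CD3D, both were higher in kidney as deposited and neither in all 3 scalings. Of the erythrocyte genes, HBB, whose reads may be shared with near-identical globin copies, had 10.4 RPKM (279 reads) in liver and 4.06 RPKM (128 reads) in kidney and SLC4A1, also an intercalated cell gene, was higher in kidney. The muscle gene ACTA1 had 1.46 against 1.11 RPKM, and the fat markers PLIN1 and CIDEC and the adrenal markers CYP11A1, CYP17A1 and CYP21A2 were under 1 RPKM in both. The part of these cells in the differences was not tested.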

How the data were processed

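The deposited value of each feature and library is an RPKM made by the authors from strand-specific paired-end reads of rRNA-depleted total RNA, mapped with TopHat (version 1.3.2 per the submitters' processing notes), assembled with Cufflinks and counted with htseq-count. The genome build of these libraries, and how reads shared by near-identical copies were counted, are not given in the sources used here.

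RPKM was used on the log2(RPKM + 0.1) scale. Total reads were recovered from the common step of the RPKM values, with whole numbers taken within 0.002. Reads per feature were recovered by finding a feature length at which all libraries gave whole numbers, the shortest being taken. This was possible for all 29462 features above 0. Reads of the 129 compared features above 0 in fewer than 4 libraries are lower bounds. Ratios of reads carry exact conditional binomial 95% intervals. A feature at 0 kept 0 RPKM in differences, calls and margins. It was set to 3 reads in its library only for ratios given as at least a value. Depth was 30822198 reads in liver and 36363969 in kidney.

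Symbols came from a gene table, for 11654 of 21607 Ensembl genes and 6373 of the 9708 compared. Genes outside the lists were named by size, as the 10 genes with a symbol and 5 lncRNAs with the largest difference in each direction or the largest margin, and list members and genes chosen after their values were seen are named besides. Members and lists were chosen with earlier results of these data known. With 1 library per organ, no test was made. Alternatives were 2 other scalings, pseudocounts of 0.01 and 1, limits of above 0 and 5 RPKM, a 4-fold limit, and organs left out. The recovery of reads and folds was tested on simulated data. Python 3.11.15, numpy 2.4.6, pandas 2.3.3, scipy 1.17.1 and matplotlib 3.10.9 were used. Some listed genes are counted but not reported here by name.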

Additional observations from a re-analysis of the deposited data

Results flagged for a closer look

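Transcripts of both organs were found in the library of mixed tissues, which enters none of the comparisons above. ALB, the albumin gene of liver, had 1322 RPKM there (294423 reads), against 0.332 RPKM (43 reads) in the library of mixed muscle, which served as the control, and a 3-read limit of 0.0135 RPKM. UMOD, the uromodulin gene of kidney, had 31.9 RPKM (5537 reads) in the mixed tissues and 0 reads in the mixed muscle, with a 3-read limit of 0.0173 RPKM.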

How the results depend on the processing

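The balance between the organs depended on scaling. Of 90 counts computed under alternatives, 55 stayed within 1.5 times the reported count and 35 did not. With the median ratio, genes higher in liver numbered 2402 and in kidney 2622, lncRNAs higher in liver 340, shared genes 227 and shared lncRNAs 30, and 883 genes and 216 lncRNAs belonged to liver alone. Scaled to the same total, 1519 genes and 252 lncRNAs were higher in liver, 24 lncRNAs were shared, and 578 genes and 141 lncRNAs belonged to liver alone. Required in all 3 scalings, 2622 genes were higher in kidney. With every feature above 0 RPKM, 1408 genes and 570 lncRNAs were higher in liver and 1973 lncRNAs in kidney. With a limit of 5 RPKM, 493 genes and 28 lncRNAs were higher in liver, 2219 and 78 in kidney, 86 genes and 5 lncRNAs were shared, 274 genes and 38 lncRNAs belonged to kidney alone and 21 lncRNAs to liver alone. With a 4-fold limit, 571 genes were higher in liver and 2956 in kidney, 81 genes and 8 lncRNAs were shared, 244 genes and 92 lncRNAs belonged to kidney alone and 40 lncRNAs to liver alone. A pseudocount of 1 left 105 lncRNAs to kidney alone. With testis and ovary left out, the organs with the most features of at least 1 RPKM, 243 genes were shared and 869 belonged to kidney alone. Of the single features called in an organ as deposited, 6 changed sign, each with the median ratio, namely ASS1 (0.20), HADHA (0.17), HADHB (0.17), CNNM2 (0.079), KDR (0.061) and ACADL (0.037). Features within 2-fold as deposited also changed sign with the same total and the median ratio, HNF4A, DDC and AGXT among them. Leaving out lung and requiring all 3 scalings were chosen after seeing the data. No paired analysis was possible because each organ has 1 library and no test was made. Depth limited features of few reads, since 3 reads on 1 kb stood for 0.0973 RPKM in liver and 0.0825 in kidney.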

Other observations

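Drug and steroid metabolism was present in both organs but with different members. Of 11 genes compared, 7 were higher in liver and 3 in kidney, against 9.25% and 60.8% of all genes, with a median difference of 1.66. The list was not restricted to the pair. Its summed level was 424 RPKM in liver and 140 in kidney. It was 391 in testis, 370 in ovary and 151 in lung, and between 2.61 and 48.2 RPKM in the remaining organs. CYP2E1, which oxidizes ethanol, had 12.8 RPKM (720 reads) in liver and 0 reads in kidney, and ADH4, an alcohol dehydrogenase, had 24.7 RPKM (944 reads) in liver and 0.0222 RPKM (1 read) in kidney. CYP1A2, an enzyme of caffeine breakdown, had 1.65 RPKM (129 reads) in liver and 0.0109 RPKM (1 read) in kidney and 0 reads in the other 7 organs. In kidney, CYP2A19 had 4.56 RPKM (202 reads) and 0 reads in liver, and was the member higher in kidney in all 3 scalings. The flavin monooxygenases differed among themselves. FMO1 had 214 RPKM (13910 reads) in liver and 45.5 RPKM (3484 reads) in kidney, whereas FMO5 had 5.13 RPKM (791 reads) in liver and 14 RPKM (2545 reads) in kidney, whose difference of -1.43 was -0.24 with the median ratio. How reads shared between members of the CYP2 and FMO families were counted is not given in the sources used here. The microvillus gene VIL1, listed as a gut marker, was shared by liver and kidney and higher in kidney, with 2.1 RPKM (172 reads) in liver and 15.1 RPKM (1463 reads) in kidney and at most 0.0517 RPKM in the other organs (highest in spleen), and the other 5 markers of exocrine pancreas and gut were under 1 RPKM in both.

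Among the 36 pairs of the 9 organs, liver and kidney ranked 5 by the number of shared genes (142), with testis and ovary (1439) and spleen and lung (251) at ranks 1 and 2. With the median ratio, the pair ranked 3 with 227 genes, and by shared lncRNAs it ranked 5 with 15 as deposited and 1 with 30. Across 15252 genes, the Spearman correlation of liver with kidney was 0.689, the highest of liver with any organ, while kidney was as close to adipose tissue (0.696) and lung (0.687). Across 3346 lncRNAs, liver was closer to lung (0.538) than to kidney (0.528). The lung library held liver transcripts, as given above, and their part in this value was not tested. These values are across features, which are not independent replicates, and depend on the libraries' depth. TCONS_00512109, which had 278 RPKM in liver and 5375 in kidney, had 3.29 RPKM in the library of mixed tissues, and the mitochondrial gene ND6, with 128 in liver and 1021 in kidney, had 7.25 RPKM there. Which library protocol was used for the mixed tissues is not given in the sources used here.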
